A study of Mus musculus with 5 samples.

Results

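Azacytidine delivered on the polymer PAZA was present in 3 of the 5 groups of this lung cancer study, and 312 genes of the 13979 measured in common were lower in all 3 of those groups than in both groups without it. The 312 genes were selected on these values themselves: the lower of Control and BMN had to be at least 1.5 times the highest PAZA-containing library and to reach a level of at least 2. The difference between the 2 sides is therefore a consequence of the selection and is described without a test. The series profiled RNA of LLC, a mouse Lewis lung carcinoma line, after 5 treatments: Control, BMN (BMN673, an inhibitor of PARP), PAZA (a polymer carrying azacytidine, an inhibitor of DNA methyltransferases), and BMN/PAZA, the polymer loaded with BMN, at a low and at a high dose. The labels describe cultured LLC cells exposed for 72 h, while the methods of the study describe subcutaneous LLC tumors grown in female C57BL/6 mice, and all 6 pan-leukocyte markers checked (such as Ptprc, which encodes CD45) were at 2 or more in Control and BMN. In bulk RNA of a tumor, fewer cells of a type and less RNA per cell cannot be told apart. The labels do not say how many tumors or cultures went into a library. Each group held 1 library, so no value has a replicate error, no p-value can be given, and every difference compares 2 libraries.

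The tables print no unit, and their values were taken as FPKM, reads per length of transcript and per depth of library, from the values and the assembler named in the labels. Each library was scaled to the same sum of 1e+06 over the 13979 genes. All levels below are on this scale, which, if FPKM, allows genes to be compared per length. Levels are given in the order Control, BMN, PAZA, low-dose BMN/PAZA and high-dose BMN/PAZA. Read depth is unknown from FPKM, so no counting interval can be given, and a gene listed at 0 may have been undetected.

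Azacytidine is built into nucleic acids and traps DNA methyltransferases, so that cytosine methylation at CpG sites is lost as cells divide; genes silenced by methylation can then be transcribed again. PARP enzymes sense DNA breaks, and inhibitors such as BMN673 hold PARP1 on DNA and leave breaks that need homologous recombination. PAZA and BMN were combined in the study to couple both actions. The 312 genes cover barrier genes of the epidermis, RNA-binding proteins of the nucleus, chromatin regulators, cohesin, actin regulators and antiviral genes.

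Of the 9486 genes at 2 or more in both Control and BMN, 3.29% passed the 1.5-fold limit in all 6 comparisons between the sides. Taken singly, the same 1.5-fold limit was passed downward by 19% of the 9486 genes in PAZA against Control, 17% in low-dose BMN/PAZA against Control and 24.1% in high-dose BMN/PAZA against Control. Against BMN it was passed by 22.9% in PAZA, 21.9% in low-dose BMN/PAZA and 29.9% in high-dose BMN/PAZA. The median of the 312 genes on the log2 scale was -0.91, -0.90 and -0.93 against Control and -0.99, -0.96 and -0.98 against BMN, for PAZA, the low dose and the high dose in turn, without the 2 to 7 members listed at 0 in each comparison. The medians of all 9486 genes lay below 0 as well, at -0.14, -0.12 and -0.28 against Control and at -0.22, -0.21 and -0.35 against BMN. Together the 312 genes made up 2.61% and 2.77% of the summed level in Control and BMN and 1.46%, 1.44% and 1.43% in the PAZA-containing libraries.

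Most of the genes sat close to the limit. The ratio of the lower of Control and BMN to the highest PAZA-containing library was between 1.5 and 2 for 271 genes, between 2 and 4 for 29 and 4 or more for 12. Its median was 1.62, and 135 genes had a ratio under 1.6, while 215 further genes that failed the limit lay between 1.4 and 1.5. When the libraries were scaled so that the median gene had the same level in each, in place of the same sum, 91 of the 312 genes passed and no other gene joined them. That scaling raised the log2 levels relative to Control by 0.11 in PAZA, 0.09 in the low dose and 0.24 in the high dose, and by -0.12 in BMN. Over the 9486 genes, the share lower in all 6 comparisons went from 34.6% to 19.7% under it. Of the 12 genes at 4 or more, 11 belonged to the epidermis and the other was Ahdc1.

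**Figure D1:**
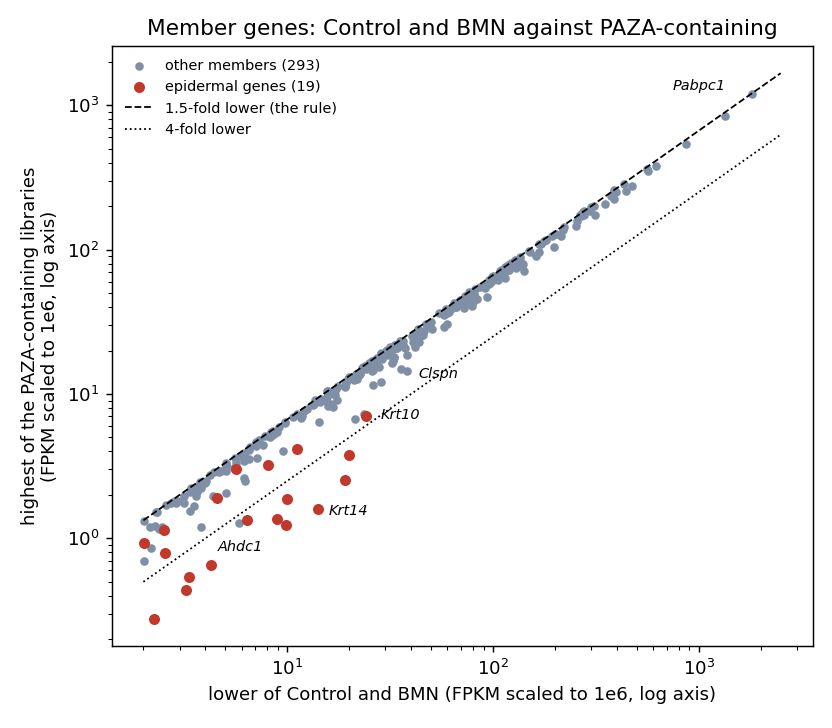
Each point is 1 of the 312 genes, with the lower of its Control and BMN levels on the horizontal axis and its highest level in a PAZA-containing library on the vertical axis, both as scaled FPKM on log axes. Most of the 293 other genes lie close to the dashed 1.5-fold line, while 11 of the 19 epidermal genes in red lie below the dotted 4-fold line, as does Ahdc1.

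The genes furthest from the limit were those of the epidermis, the layered sheet of keratinocytes that covers the skin. Its basal cells make keratins 5 and 14, cells above them replace these with keratins 1 and 10, and desmosomes join the cells to each other. Of the 312 genes, 19 were assigned to this group after the selection was known. Krt14, the basal type I keratin, had the highest ratio of all, with 14.1 in Control, 62.9 in BMN, 1.54 in PAZA, 0.511 in the low-dose and 1.59 in the high-dose combination. Its partner Krt5 was at 19.1, 67.3, 2.304, 0 and 2.53. Krt15, another basal keratin, stood at 20.01, 37.2, 0.943, 0 and 3.81. For these basal keratins the low-dose BMN/PAZA library was the lowest of the 5 and the BMN library the highest. The suprabasal pair had the same order of sides, with Krt1 at 9.89 and 42.8 without PAZA and 1.08, 0 and 1.23 with it and Krt10 at 24.2, 28.05, 3.08, 1.33 and 7.06. Krt77, a further suprabasal keratin, was at 4.57, 4.98, 1.9, 0.0945 and 0.279.

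Desmosome and hemidesmosome genes followed. Dsp, desmoplakin, which ties keratin filaments to the desmosome, was at 8.96 in Control, 40.1 in BMN, 1.31 in PAZA, 0.103 in the low-dose and 1.36 in the high-dose combination. Dsc3, a desmosomal cadherin, was at 6.404, 21.5, 1.34, 0.253 and 0.797. Perp, a desmosome protein and p53 target, was at 11.2, 39.7, 2.48, 0.439 and 4.16. Col17a1, the transmembrane collagen of the hemidesmosome, was at 4.28 and 6.64 without PAZA and 0.464, 0 and 0.651 with it. In all 4 the PAZA-containing libraries lay below Control, which in turn lay below BMN.

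Flg, filaggrin of the outer layers, showed the widest spread on the side without PAZA, with 2.52 in Control, 86.1 in BMN, 0 in PAZA, 1.15 in the low-dose and 0.56 in the high-dose combination. Sfn, stratifin, of stratified epithelia, was at 3.33, 7.34, 0.3405, 0.541 and 0.177, and Ly6d was at 3.55, 3.23, 0, 0 and 0.438. Pof1b was at 2.24 and 4.65 without PAZA and 0.0662, 0.141 and 0.277 with it, and Scel, sciellin of the cornified envelope, at 2.02, 6.18, 0, 0.926 and 0.682. The other four were Ccl27a, a chemokine of keratinocytes, at 9.93, 12.9, 1.03, 1.86 and 1.03, Anxa8, an annexin, at 8.04, 19.9, 1.58, 3.2 and 2.21, Fgfbp1, which carries fibroblast growth factors, at 2.56 and 5.22 without PAZA and 0.743, 0.787 and 0.507 with it, and S100a14 at 6.58, 5.65, 2.43, 0 and 3.04. Only S100a14 of the 19 had a ratio under 2.

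The median ratio of the 19 epidermal genes was 5.25, against 1.61 for the other 293. The summed level of the 19 was 163.4 in Control, 502.3 in BMN, 22.6 in PAZA, 11.3 in the low-dose and 32.4 in the high-dose combination. BMN was above Control for 17 of them, beside 5650 of the 9486 genes. The median BMN to Control ratio of the 19 was 2.20, so the 2 libraries without PAZA differed from each other by more here than in any other role group. None of the 19 had its 3 PAZA-containing values within 1.5-fold of each other, and 8 were listed at 0 in at least 1 of these libraries. All 19 passed the limit when values were centred within bins of transcript length, described further on, and 17 of them passed under median-ratio scaling.

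Of a list of 20 epidermal markers, written with earlier results known, 17 were measured, 11 reached 2 in Control and BMN and 9 were among the 312, so the rule fixed their direction. Of the other markers measured, Krt6a, Dsg1a, Dsg3 and Trp63, each below 2 in Control, were lower in all 6 comparisons, and Krt16, Krt17, Sbsn and Lgals7 were not. BMN was above Control for 16 of the 17, beside 5650 of the 9486 genes at 2 or more. The list summed to 201.6 in Control, 525.6 in BMN, 105.1 in PAZA, 110.3 in the low-dose and 119.0 in the high-dose combination. Much of the sum on the PAZA side came from Sbsn and Lgals7, which did not share the pattern. Sbsn, suprabasin, was at 72.0, 52.4, 67.0, 59.98 and 69.9, and Lgals7, galectin-7, at 13.1, 43.8, 23.4, 45.1 and 25.1. Trp63, the master transcription factor of the epidermis, was below the level of 2 in Control, with 1.39 in Control, 6.24 in BMN, 0.241 in PAZA, 0.115 in the low-dose and 0.737 in the high-dose combination. Genes of simple epithelia followed no common order, with Krt8 at 115.2, 114.7, 143.4, 173.9 and 135.3, Krt19 at 47.1, 27.4, 33.4, 39.6 and 47.4, and Krt18 and Epcam at 3.49 or less in each library. Whether the amount of skin in the tissue differed between libraries was not tested.

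**Figure D2:**
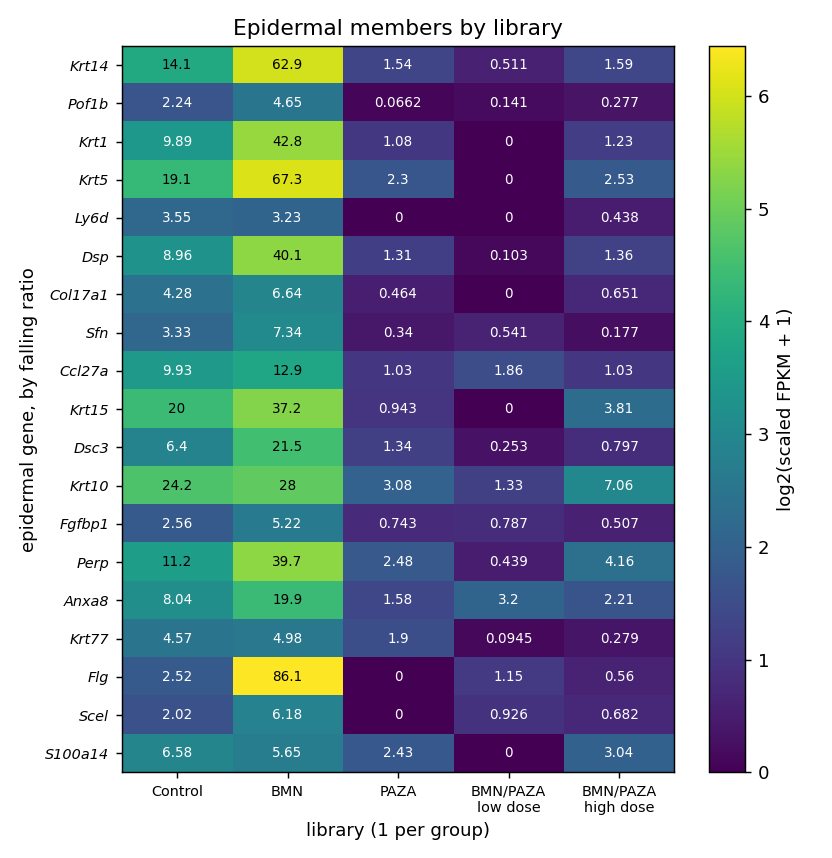
Rows are the 19 epidermal genes ordered by the ratio that selected them, columns are the 5 libraries, and the colour gives log2 of the scaled FPKM plus 1, with the scaled FPKM printed in each cell. BMN holds the brightest cell in 17 of the 19 rows, and the low-dose column holds 6 of the cells at 0.

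Since azacytidine acts on CpG sites, CpG dinucleotides were counted in the 250 bases before and 50 after each transcript start, from the RefSeq promoter table of GRCm38.p6, which held 251 of the 312 genes. The 13 epidermal genes in the table had a median of 5 CpG in the 300 bases, the 238 other members 25, and the 7276 genes that were not members 22. The promoters of Krt5 (chr15:101712856-101713155, minus strand) and Krt10 (chr11:99389315-99389614, minus strand) are shown as CpG-poor examples beside those of Sfpq (chr4:127021051-127021350, plus strand) and Nono (chrX:101429401-101429700, plus strand), nuclear RNA-binding proteins described further on. Each is printed 5′ to 3′ on the strand of its gene, with every CpG in capitals, 6 in Krt5, 2 in Krt10, 13 in Sfpq and 23 in Nono. Both of the latter counts lie below the median of 25 of the other members, that of Sfpq well below it.
Krt5: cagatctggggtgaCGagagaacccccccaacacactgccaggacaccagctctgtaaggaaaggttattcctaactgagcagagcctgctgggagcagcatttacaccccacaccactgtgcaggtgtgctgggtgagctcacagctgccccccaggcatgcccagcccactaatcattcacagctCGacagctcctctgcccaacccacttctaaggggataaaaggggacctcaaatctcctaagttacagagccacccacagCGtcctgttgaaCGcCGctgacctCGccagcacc
Krt10: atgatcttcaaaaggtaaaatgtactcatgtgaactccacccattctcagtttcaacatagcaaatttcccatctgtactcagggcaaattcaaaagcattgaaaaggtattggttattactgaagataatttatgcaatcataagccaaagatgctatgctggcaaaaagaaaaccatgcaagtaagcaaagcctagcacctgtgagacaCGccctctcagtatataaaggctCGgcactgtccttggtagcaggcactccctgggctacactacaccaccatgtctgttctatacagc
Sfpq: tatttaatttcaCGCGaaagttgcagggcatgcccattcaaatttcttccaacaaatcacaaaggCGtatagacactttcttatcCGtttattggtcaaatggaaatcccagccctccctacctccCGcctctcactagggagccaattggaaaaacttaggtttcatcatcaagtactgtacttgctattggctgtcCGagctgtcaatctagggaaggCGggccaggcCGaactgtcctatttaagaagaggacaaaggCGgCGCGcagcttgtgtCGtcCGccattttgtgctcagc
Nono: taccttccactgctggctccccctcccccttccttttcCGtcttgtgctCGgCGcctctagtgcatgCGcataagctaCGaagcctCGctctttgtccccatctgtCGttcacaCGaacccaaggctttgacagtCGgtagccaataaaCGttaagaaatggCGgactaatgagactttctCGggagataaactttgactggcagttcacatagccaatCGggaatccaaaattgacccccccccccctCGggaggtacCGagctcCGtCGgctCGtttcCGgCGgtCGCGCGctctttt
The count of CpG describes the DNA and not its methylation, which was not measured in these files. At least 10 CpG were found in 82.9% of the members' promoters and 85.4% of the others.

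Dnmt1, the maintenance DNA methyltransferase that azacytidine traps, was itself among the 312 genes, with 155 in Control, 150.3 in BMN, 97.5 in PAZA, 78.8 in the low-dose and 52.7 in the high-dose combination. Its level was lower in the low-dose combination than in PAZA and lowest in the high-dose combination, and it had a ratio of 1.54. Mbd1, which binds methylated CpG, was at 14.4, 18.1, 7.71, 6.44 and 8.81. A list of 17 DNA methylation genes had 16 measured, of which 14 reached 2 in Control and BMN and 9 were lower in all 6 comparisons, beside 34.6% of all 9486 genes. The other 7 that were lower included Mbd2, at 104.4, 110.6, 70.0, 65.9 and 73.4, and Tet2, a dioxygenase that oxidises methylcytosine, at 7.69, 11.02, 5.73, 5.21 and 4.45. Uhrf1, which recruits Dnmt1 to newly copied DNA, overlapped between the sides at 81.2, 97.5, 88.3, 71.0 and 75.2, and so did Dnmt3a, a de novo methyltransferase, at 9.18, 12.3, 9.69, 7.07 and 9.96. The 2 measured genes below that level were higher in all 6 comparisons, Dnmt3l at 0.538, 0.433, 1.56, 0.551 and 0.959 and Dnmt3b at 0.0666, 0.120, 0.130, 0.138 and 0.223. Under median-ratio scaling 8 of the 14 were lower in all 6, and neither Dnmt1 nor Mbd1 passed the 1.5-fold limit.

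Chromatin regulators made up 31 of the genes, with a median ratio of 1.64. Corepressors and coactivators stood on the list together. Ncor1, the nuclear receptor corepressor, was at 313 in Control, 322 in BMN, 132 in PAZA, 174 in the low-dose and 168 in the high-dose combination. Ncoa1, a coactivator of the same receptors, was at 40.5, 32.9, 8.84, 12.9 and 17.9. Its paralog Ncoa2 was at 53.9, 40.5, 20.4, 20.7 and 25.1, and Ncoa5 at 59.7 and 71.9 without PAZA and 30.8, 29.7 and 28.5 with it. In all 4 genes the highest PAZA-containing library stayed below the lower of Control and BMN by at least 1.61-fold. The acetyltransferase Crebbp was at 45.8, 46.3, 20.8, 25.7 and 23.5.

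Nucleosome remodellers formed the second part of this group. Chd4, the ATPase of the NuRD complex, was at 198 in Control, 213 in BMN, 102 in PAZA, 105 in the low-dose and 91.5 in the high-dose combination, and its paralog Chd3 at 43.6, 56.8, 14.5, 22.4 and 22.9. Smarcc1, a core subunit of the BAF remodeller, was at 119.7, 129.8, 75.5, 77.9 and 70.2. In Chd4, Chd3 and Smarcc1 the 3 PAZA-containing values lay closer to each other than to Control. Among histone methyltransferases, Setdb1, which methylates histone H3 lysine 9, was at 25.99 and 26.02 without PAZA and 14.1, 15.3 and 17.02 with it, and Kmt5b, which methylates histone H4, at 104, 105, 43, 62.1 and 58.7. Of 24 genes for subunits of BAF complexes at 2 or more, listed after the members were known, 5 were members (Smarcc1, Smarcc2, Smarcd1, Arid1a and Bicral), beside 3.29% of all 9486 genes. Of the 24, 16 were lower in all 6 comparisons, beside 34.6% (13 and 19.7% under median-ratio scaling), and none of the 5 passed the 1.5-fold limit under that scaling. The demethylase Kdm2a was at 152, 165, 81.6, 95.7 and 85.8. Under median-ratio scaling 8 of the 31 passed, among them Chd3, Chd4, Crebbp and Ncoa5.

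RNA processing contributed 27 genes, which held several of the most abundant. Hnrnpu, a scaffold protein of the nucleus, was at 1335 in Control, 1457 in BMN, 789.9 in PAZA, 763 in the low-dose and 842 in the high-dose combination. Sfpq, Nono and Pspc1 encode the 3 paralogous proteins of paraspeckles, and all 3 were members, beside 3.29% of all 9486 genes. None of the 3 passed under median-ratio scaling or length centring. Sfpq was at 868, 1014, 543, 443 and 436, Nono at 563, 679, 338, 361 and 353 and Pspc1 at 60.02 and 74.6 without PAZA and 36.4, 31.1 and 34.1 with it. In each of them BMN was the highest library, and the lower of Control and BMN exceeded the highest PAZA-containing library by 1.56-fold to 1.65-fold.

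Proteins of the hnRNP family coat nascent RNA. Hnrnpr was at 434 in Control, 496 in BMN, 255 in PAZA, 283 in the low-dose and 257 in the high-dose combination, and Hnrnpm, for which BMN stood far above Control, at 265, 439.5, 174, 138 and 169. Splicing factors included Srsf5 at 278, 279.6, 184, 143 and 154 and Rbfox2 at 258 and 201 without PAZA and 128, 118 and 104 with it, and Snrnp200, a helicase of the spliceosome, at 66.1, 70.6, 32.8, 39.9 and 38.3. Ppig, a cyclophilin of splicing speckles, was at 352, 385, 207, 143 and 161. Bud13, part of the RES complex, had the highest ratio of the 27 genes, 2.25, with 26.02, 27.5, 9.49, 11.6 and 8.87. Safb, a scaffold attachment factor, was at 141 and 159.6 without PAZA and 71.1, 61.9 and 51.9 with it, and its relative Sltm at 72.5, 89.03, 39.4, 35.5 and 38.9. All 27 had their 3 PAZA-containing values within 1.5-fold of each other. Of the 27, 22 were higher in BMN than in Control, beside 5650 of the 9486 genes.

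The translation group of 9 held the most abundant member of all, Pabpc1, the cytoplasmic poly(A)-binding protein, at 1992 in Control, 1820.4 in BMN, 1106 in PAZA, 1206 in the low-dose and 1189.7 in the high-dose combination. Eif3a, the largest subunit of initiation factor 3, was at 621, 678, 370.0, 378 and 365, and Eif5b, which joins the ribosomal subunits, at 114, 116, 70.7, 67.4 and 71.6. Atxn2, an RNA-binding protein of stress granules, was at 187 and 177 without PAZA and 100.4, 115 and 102 with it. All 9 had Control and BMN close together, and the ratios ran from 1.51 to 1.80. The ribosome itself was not on the same side. None of the 79 ribosomal protein genes was a member, 4 of them were lower in all 6 comparisons and 48 were higher in all 6, where 34.6% of the 9486 genes were lower and 7.26% higher (1 and 63 of the 79, beside 19.7% and 17.3%, under median-ratio scaling). The respiratory chain genes held no member either, with 4 of the 74 at 2 or more lower in all 6 and 25 higher, and with 2 lower and 42 higher under median-ratio scaling. When both lists were left out of the sum used for scaling, 295 of the 312 genes passed.

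Ubiquitin ligases and proteases made up 13 genes. Nedd4, a HECT ligase, was at 619 in Control, 569.5 in BMN, 338 in PAZA, 349.9 in the low-dose and 301 in the high-dose combination, and Trip12, another HECT ligase, at 474, 478, 273, 276 and 265. In both ligases Control and BMN differed by less than either did from PAZA. Of the 37 Usp genes at 2 or more, deubiquitinases, 3 were members, beside 3.29% of all 9486 genes, and none of the 3 passed under median-ratio scaling or length centring. Usp8 was at 111, 106, 61.9, 64.4 and 58.8. Usp47 was at 133 and 129 without PAZA and 73.4, 78.5 and 72.8 with it. Usp30, of mitochondria, was at 7.03, 8.29, 3.42, 3.97 and 4.34. Fbxw7, the substrate receptor that targets cyclin E and Myc, was at 19.99, 19.97, 11.5, 11.9 and 13.1.

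Cohesin holds sister chromatids together and shapes loops of chromatin, and of 10 genes for its subunits and regulators, listed after the members were known, 4 were members, beside 3.29% of all 9486 genes. Of the 10, 7 were lower in all 6 comparisons and 1 was higher (5 and 1 under median-ratio scaling). The ring subunit Smc1a was at 215 in Control, 236 in BMN, 124 in PAZA, 107 in the low-dose and 114 in the high-dose combination and its partner Smc3 at 218, 219, 136, 119 and 129.7. Nipbl, which loads the ring, was at 59, 63.8, 35.4, 37.9 and 39.02, and Pds5a, which regulates its release, at 193 and 208 without PAZA and 112, 101 and 123 with it. Topoisomerases relieve the twist of DNA, and Top2b was at 445, 541, 240.2, 253 and 227 and Top1 at 119.8, 182, 72.1, 70.1 and 60.8. For both, Control and BMN lay above all PAZA-containing values.

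Repair and checkpoint genes were few. Rad50, of the complex that first binds double-strand breaks, was at 72.95 in Control, 82.4 in BMN, 47.6 in PAZA, 45.5 in the low-dose and 45.7 in the high-dose combination. Clspn, claspin, which passes the replication stress signal from ATR to CHK1, had a ratio of 2.64, with 38.4, 47.4, 14.3, 14.5 and 13.4. Rev1, a translesion polymerase, was at 43.7, 42.8, 25.5, 17.3 and 20, and Uvssa, of transcription-coupled repair, at 6.48 and 5.49 without PAZA and 3.07, 2.47 and 2.79 with it. Rad50 was the only member among 32 homologous recombination genes, 26 of which reached 2 in Control and BMN and 10 of which were lower in all 6 comparisons, beside 34.6% of the 9486 genes (5 of 26 and 19.7% under median-ratio scaling). Brca1 overlapped between the sides at 37.7, 28.2, 29.0, 17.1 and 31.2. Of 18 genes of the PARP list at 2 or more, none was a member and 10 were lower in all 6, beside 34.6% of the 9486 genes (6 of 18 and 19.7% under median-ratio scaling).

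Interferon and antiviral genes numbered 15. Under median-ratio scaling 2 of the 15 passed, Eif2ak2 and Rnf213, and under length centring 1 passed, Rtp4. The deposited copies of each of these disagreed, as given below. Interferons switch on genes that detect or destroy viral nucleic acids, through the JAK kinases and STAT factors. Jak2, one of these kinases, was at 64.7 in Control, 68.4 in BMN, 38.5 in PAZA, 42.8 in the low-dose and 36.7 in the high-dose combination. Eif2ak2, which encodes the double-stranded RNA sensor PKR, was at 40.8, 46.04, 21.98, 21.6 and 22.8. Samhd1, which breaks down deoxynucleotides, was at 135, 137, 84.9, 55.2 and 74.5, and Rnf213, a giant ubiquitin ligase, at 174 and 163 without PAZA and 86.6, 90.3 and 76.3 with it. Trim25, the ligase that activates RIG-I, was at 36.1, 33.5, 20.8, 21.7 and 16.96.

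Among genes that interferon induces, Ifit2, which binds RNA, was at 23.02 in Control, 21.2 in BMN, 10.2 in PAZA, 12.3 in the low-dose and 12.5 in the high-dose combination, Oasl2 at 39.01, 32.2, 16.8, 20.03 and 18.3 and Rtp4 at 28.99, 19.1, 11.4, 7.37 and 9.77. Tgtp2, a GTPase induced by interferon gamma, was at 12.7 and 4.21 without PAZA and 2.61, 2.77 and 2.09 with it, with Control above BMN by more than BMN lay above the rest. Ticam1, the adaptor of TLR3, was at 3.31, 2.88, 1.39, 1.76 and 0.727. The pair Ifi208 and Ifi209, neighbours on chromosome 1, was at 3.31, 2.95, 1.57, 0.188 and 1.82 for the first and 22.5, 24.7, 14.1, 11.5 and 11.9 for the second. The Schlafen pair Slfn8 and Slfn9, neighbours on chromosome 11, was at 24.9 and 21.8 without PAZA and 11.8, 10.5 and 12.7 with it for the first and 95.7, 102, 57.8, 56.2 and 57.1 for the second. Reads can be shared between the members of such pairs, and between Tgtp2 and Tgtp1, so their separate values are uncertain.

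The values of 7 of the 15 antiviral genes come with a reservation. The same library was deposited in more than 1 table, and for all other members the copies agreed within 0.405% once a constant ratio between tables was taken out. For Eif2ak2, Ifit2, Rtp4, Samhd1, Trim25, Jak2 and Rnf213, the low-dose value in the table with BMN was 2 times the one used here after that constant. In the table that pairs PAZA with the low dose, the PAZA column of these genes held the low-dose value used here, at a ratio of 1, and the low-dose column held 1.5 times the PAZA value of the table with Control. In the table with BMN, 5 of the 7 were higher in the low-dose library than in BMN, for instance Jak2 with 50.01 against 35.6 and Ifit2 with 14.4 against 11.02, as deposited FPKM. None of the 7 passed with either other low-dose copy, and 305 of the 312 genes did so with the copy of the table with BMN and 303 with that of the table with PAZA. In the copies used here no member had more than 6 significant digits, once the low-dose column was divided by 3.6. Values with more than 6 digits stood in 2 of the 7 low-dose values of the table with BMN and in 3 of those of the table with PAZA. Which copy is right was not tested.

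The reservation extends to the interferon pathway as a whole. Of 45 interferon-stimulated genes measured, 27 had low-dose copies that differed by more than 0.5% after that constant, against 365 of 13583 shared genes above 0 in both copies. With the copies used here, 40 of the 45 reached 2 in Control and BMN, 19 were lower in all 6 comparisons, beside 34.6% of the 9486 genes (12 of 40 and 19.7% under median-ratio scaling), and 3 were members, beside 3.29%. None of the 3 passed the 1.5-fold limit under median-ratio scaling. Ifih1, the sensor MDA5, was at 29.6, 26.8, 15.6, 18.8 and 14.3. Mx1 overlapped between the sides at 10.7, 5.31, 17.3, 4.92 and 2.34. Between the low-dose copy paired with BMN and the one used here, no gene of the epidermal or DNA methylation lists differed. Genes at 0 in the low dose, 5 of the 17 measured epidermal markers, gave no ratio to compare. Other copies were not tallied for these lists.

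The core of the interferon-stimulated response element, searched as 2 copies of GAAA on the same strand with 2 bases between them, on either strand of the DNA, was found in 5 of the 14 antiviral members with a promoter in the table, Eif2ak2, Slfn8, Slfn9, Ifi208 and Tgtp2. It was found in 4.38% of all 251 member promoters, in 3.42% of the 7276 promoters of other genes and in 3.49% of all 27025 RefSeq promoters. The promoters of Slfn8 (chr11:83020761-83021060, minus strand) and Slfn9 (chr11:82991781-82992080, minus strand), chosen after their values were seen because their copies agreed, carry the motif in capitals, on the opposite strand, 48 and 45 bases before the transcript start.
Slfn8: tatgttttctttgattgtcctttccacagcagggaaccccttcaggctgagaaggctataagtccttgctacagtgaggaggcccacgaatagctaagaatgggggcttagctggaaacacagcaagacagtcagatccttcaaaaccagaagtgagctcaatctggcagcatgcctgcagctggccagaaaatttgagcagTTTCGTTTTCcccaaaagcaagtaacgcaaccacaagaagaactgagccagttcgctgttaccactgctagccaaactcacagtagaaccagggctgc
Slfn9: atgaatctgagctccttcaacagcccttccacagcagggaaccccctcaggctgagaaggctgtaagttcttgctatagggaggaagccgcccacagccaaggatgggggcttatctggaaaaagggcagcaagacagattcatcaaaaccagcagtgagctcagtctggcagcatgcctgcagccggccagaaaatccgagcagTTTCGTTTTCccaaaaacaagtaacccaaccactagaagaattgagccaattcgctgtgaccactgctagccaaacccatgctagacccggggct
The other motifs searched on either strand were TATAAA, found in 7.97% of member and 7.26% of other promoters, CCGGAAGT of ETS factors, in 7.97% and 9.74%, CCAAT, in 35.5% and 39.2%, and AAGATGGCG of YY1, in 5.58% and 3.601%.

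Transcription factors, Mediator and elongation genes made up 31 members. Ahdc1, which encodes an AT-hook protein, had the highest ratio outside the epidermis, 4.54, with 5.85 in Control, 6.96 in BMN, 1.27 in PAZA, 1.13 in the low-dose and 1.29 in the high-dose combination. Gli3, the hedgehog pathway factor, had a ratio of 3.18, with 21.3, 22.4, 5.28, 6.29 and 6.7. Tdrd3, which works with topoisomerase 3B, was at 39.8, 35.6, 14.9, 10.97 and 13.97, and Taf4, a TFIID subunit, at 28.7 and 30.5 without PAZA and 9.68, 12.04 and 10.4 with it. Cic, the capicua repressor under MAPK control, was at 14.3, 23.9, 5.13, 6.41 and 4.92. Mef2d was at 16.7, 18.1, 5.81, 6.96 and 8.15, and Rarg, a retinoic acid receptor, at 93.6, 106, 37.8, 45.2 and 46.7. These 7 were the members of the group with a ratio of 2 or more, and all 7 also passed under median-ratio scaling and under length centring.

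The abundant factors of the group lay nearer the limit. Eid1 was at 301 in Control, 317 in BMN, 197 in PAZA, 183 in the low-dose and 178 in the high-dose combination and Gabpa, an ETS factor, at 276, 276, 153, 144 and 173. Yap1, the effector of Hippo signalling, was at 48.2, 42.4, 26.3, 23.1 and 21.04, and Bhlhe41, a clock repressor, at 61.3 and 42.3 without PAZA and 23.04, 20.3 and 15.3 with it. A separate set of 10 zinc finger genes, of which 8 carry Zfp names among the 252 such genes at 2 or more, close to the 3.29% of all 9486 genes, had ratios between 1.52 and 1.86.

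Genes of the actin cytoskeleton and of adhesion numbered 29. Tln1, talin, which links integrins to actin, was at 394 in Control, 456 in BMN, 248 in PAZA, 244 in the low-dose and 252 in the high-dose combination, and its paralog Tln2 at 17.4, 17.6, 4.23, 9.12 and 4.62. Ctnna1, alpha-catenin, which links cadherins to actin, was at 375, 383, 234, 209.6 and 227. Rock1, a kinase that promotes actomyosin contraction, was at 167 and 183 without PAZA and 93.5, 86.5 and 96.7 with it, and its substrate Ppp1r12a, of the myosin phosphatase, at 171, 179.6, 91.3, 109 and 99.4. Lasp1 was at 268, 252, 145, 125 and 116. Of the 13 myosin genes named Myo at 2 or more, 4 were members, beside 3.29% of all 9486 genes, and none of the 4 passed under median-ratio scaling or length centring. Myo10, the motor of filopodia, was at 166, 129, 74.4, 67.2 and 59.3. Myo9b, an unconventional myosin, was at 47.3 and 70.9 without PAZA and 24.8, 30.4 and 30.8 with it. Myo7a was at 9.16, 10.03, 4.26, 4.04 and 5.94, and Myo1f at 6.36, 6.18, 3.902, 3.38 and 1.903. The 4 spanned a wide range of levels with ratios between 1.54 and 1.73. No member of this group reached a ratio of 2, and Cgnl1, of epithelial junctions, came nearest with 1.98 and 41.97, 56.9, 14.5, 17.2 and 21.2.

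Microtubule and centrosome genes numbered 14. Map1b was at 138 in Control, 144 in BMN, 65.8 in PAZA, 77.5 in the low-dose and 72.1 in the high-dose combination, and Ckap5, the microtubule polymerase of the spindle, at 114, 128, 60.1, 64.02 and 55.3. Pcm1, of the centriolar satellites, was at 84.4, 76.6, 43.4, 43.1 and 43.7. Of 34 genes for centrosomal proteins named Cep at 2 or more, 4 were members, beside 3.29% of all 9486 genes, and none of the 4 passed under either of these alternatives. Cep250, which links the centrioles, was at 54.9 and 60.7 without PAZA and 36.4, 33.4 and 14.3 with it. Cep290, of the ciliary transition zone, was at 28.96, 33.1, 18.6, 18.8 and 17.5. Cep135 was at 3.995, 3.75, 2.41, 2.44 and 2.397, and Cep70 at 30.6, 38.5, 12.05, 20.2 and 14.3. The high dose stood well below the other PAZA-containing libraries for Cep250 and not for Cep290 or Cep135. Among 26 genes of mitosis, none was a member and 12 were lower in all 6 comparisons, beside 34.6% of the 9486 genes (8 of 26 and 19.7% under median-ratio scaling).

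The 102 genes without a role group included both abundant and rare ones. Aplp2, an amyloid precursor-like protein, was at 389 in Control, 401 in BMN, 191 in PAZA, 222 in the low-dose and 224 in the high-dose combination, Pdcd6ip, the ESCRT adaptor ALIX, at 389, 442, 258, 226 and 246, and Lin7c at 334, 309, 200.04, 193 and 180.3. Golim4 was at 308 and 297 without PAZA and 170.3, 184 and 183 with it and Slmap at 267, 341, 171, 138 and 143. Scd1, the stearoyl-CoA desaturase, was at 217, 180.0, 92.6, 117 and 102. It was the only member of the 24 genes of the cholesterol list at 2 or more, 13 of which were lower in all 6, beside 34.6% of the 9486 genes (9 of 24 and 19.7% under median-ratio scaling). Ctsk, cathepsin K, was at 19.2, 21.5, 11.9, 9.698 and 4.75, with the high-dose combination lowest.

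Some of the 102 had high ratios. Ccnyl1, a cyclin, had a ratio of 3.25, with 23.6 in Control, 30.3 in BMN, 7.26 in PAZA, 4.08 in the low-dose and 6.72 in the high-dose combination. Ptprf, a receptor tyrosine phosphatase, was at 5.16, 3.83, 0.493, 1.201 and 0.895, and Rtn4rl2, a Nogo receptor relative, at 2.02, 2.16, 0, 0 and 0.698. Trbc1, a constant region of the T cell receptor, was at 3.15 and 2.18 without PAZA and 0.863, 0.456 and 0 with it, at low levels and with a near-identical copy that can share its reads. Fgfr2 was at 5.91, 3.73, 0.459, 1.29 and 2.22. Of 135 solute carrier genes named Slc at 2 or more, 3 were members, a share below the 3.29% of all 9486 genes. Slc43a2, an amino acid carrier, was at 16.6, 9.56, 3.29, 3.57 and 4.05, Slc35a4 at 7.31, 7.04, 3.22, 4.66 and 3.78 and Slc2a9, a urate carrier, at 2.84 and 2.33 without PAZA and 0.2703, 0.191 and 1.52 with it. The kinases Map3k3 and Map3k11 of the MAPK cascades were at 34.01, 33.5, 19.4, 20.9 and 15.97 and at 4.77, 8.997, 2.25, 2.93 and 2.39. Low genes such as these change ratio with small differences, and a pseudocount of 1 on both sides of the ratio left 247 of the 312 genes.

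Of the 47 gene lists written for these tissues and treatments, 10 held a member, 36 held none and 1, the histones, could not be matched because the files use other names. Histone genes were measured, and Hist1h2bq, an H2B gene outside that list, was a member, at 2.46 in Control, 2.85 in BMN, 1.15 in PAZA, 1.2 in the low-dose and 1.14 in the high-dose combination. The 20 members in these lists are those named above for the epidermis, Dsp of the adhesion list, Dnmt1, Mbd1, Rad50, Ifit2, Oasl2, Rtp4, Samhd1 of azacytidine metabolism, Scd1, Bhlhe41 of the clock and Ctsk of matrix proteases. Markers of skeletal muscle did not follow the sides, with sums of 34.4, 269.8, 112.9, 32.4 and 338.5, and neither did those of fibroblasts and matrix, with 1835, 2571, 1944, 1875 and 1608, or of macrophages, with 1248, 1429, 1669, 1493 and 1140. T and NK cell markers summed to 83.0, 53.1, 56.9, 41.7 and 36.6. The part of cell content in the lower levels was not tested.

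Differences between libraries of the same side are a description only, since a rule on the highest PAZA-containing value and the lower of Control and BMN tends to leave out genes with 1 deviating library. BMN was at least 1.5-fold higher than Control for 22 members, 7.05% of them, beside 10.9% of the 9486 genes, and lower for 6, beside 6.76%. Without the epidermal genes these counts were 8 and 6 of 293. The low-dose combination was at least 1.5-fold above PAZA for 22 members and below it for 23, beside 9.77% and 8.21% of the 9486 genes. The high-dose combination was above PAZA for 19 and below it for 25, beside 7.03% and 13.6%. Against the low dose, the high dose was above for 24 and below for 25, beside 5.96% and 14%.

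The median log2 difference of the members, with 1 added to each level, was 0.07 for BMN against Control, 0.02 for the low dose against PAZA, -0.01 for the high dose against PAZA and -0.02 for the high against the low dose, and each changed sign under median-ratio scaling. Over the 9486 genes the same medians were 0.08, 0.03, -0.12 and -0.14. No PAZA-containing library was always the extreme: PAZA was the lowest of the 3 for 108 genes, the low dose for 88 and the high dose for 116. Dnmt1 and Cep250 stepped down further in the high dose, while Hnrnpu and Gabpa were highest there among the 3.

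**Figure D3:**
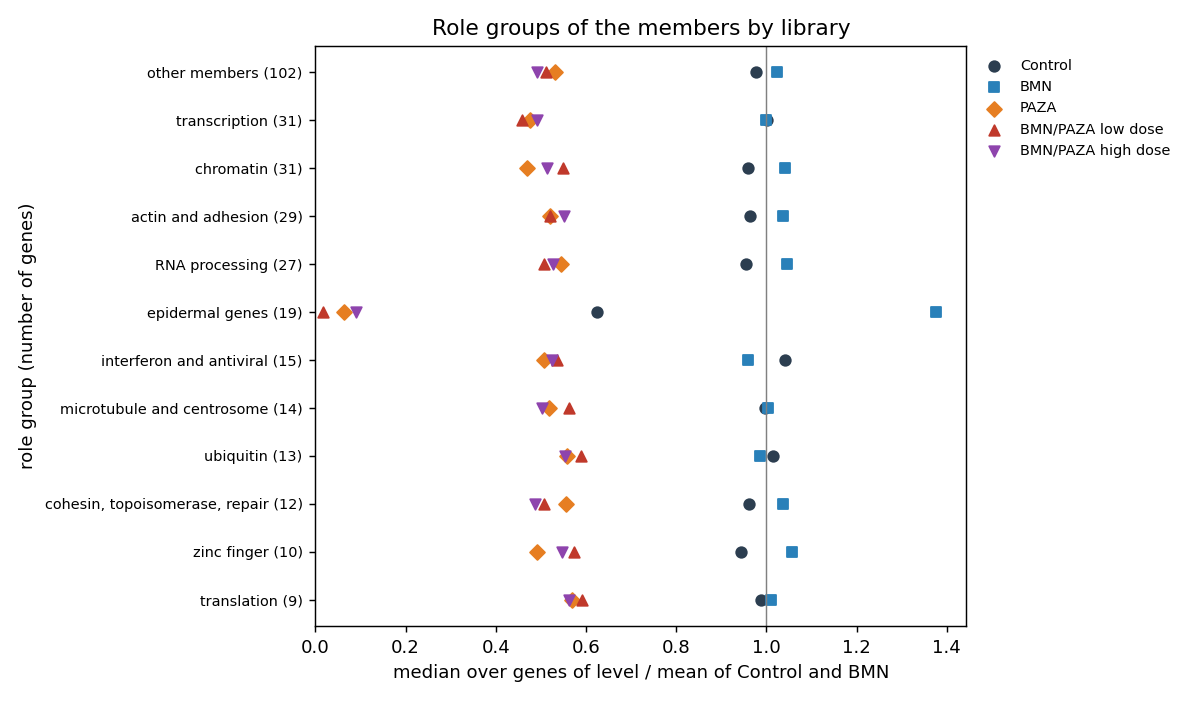
For each role group, with its number of genes, the symbols give the median over genes of the level in each library divided by the mean of Control and BMN, so 1 marks that mean. In the 11 groups other than the epidermal genes, Control and BMN lie between 0.943 and 1.06 and the PAZA-containing libraries between 0.459 and 0.590. The epidermal genes lie at 0.624 in Control, 1.38 in BMN, 0.0638 in PAZA, 0.0182 in the low-dose and 0.0904 in the high-dose combination.

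The members differed from the other genes in length, which the rule did not use. The principal transcript of a member had a median of 4458.5 bases, against 2957 for the other genes at 2 or more, with 14.5 against 9 exons and a gene span of 55368 against 24652 bases. The GC content of the transcripts did not separate them, with medians of 49.2% and 49.4%. Split into 5 equal groups by transcript length, the genes gave members at 1.01%, 1.55%, 3.10%, 3.998% and 6.98% from the shortest to the longest. Among genes at a level of 20 or more the shares were 0%, 1.19%, 3.68%, 6.99% and 10.8%. The epidermal genes were the exception, with a median transcript of 2094 bases. Members were also more abundant, with a median of 28.7 against 16.3 for the lower of the Control and BMN levels, a value that the rule used. Their share was 2.47% of the genes from 2 to 5, 2.23% from 5 to 20, 3.70% from 20 to 100 and 6.84% above.

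The whole of the libraries showed a gradient with length in the same direction. With 1 added to each level, the median gene of the shortest group had a log2 difference of 0.15 in PAZA against Control and that of the longest group -0.38. The values ran from 0.13 to -0.27 for the low dose and from -0.08 to -0.36 for the high dose. BMN against Control ran the other way over a smaller range, from 0.03 to 0.10. With each library centred on the median gene within 20 bins of transcript length, an alternative chosen after seeing the data, 72 of the 312 genes passed the rule, and 9 other genes joined them. These 72 held all 19 epidermal genes, 9 of the 31 transcription genes, 4 of the 27 RNA processing genes, 3 of the 31 chromatin genes, 1 of the 12 cohesin, topoisomerase and repair genes, Clspn, and none of the translation or microtubule genes. Of the 312, 59 passed both under length centring and under median-ratio scaling.

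**Figure D4:**
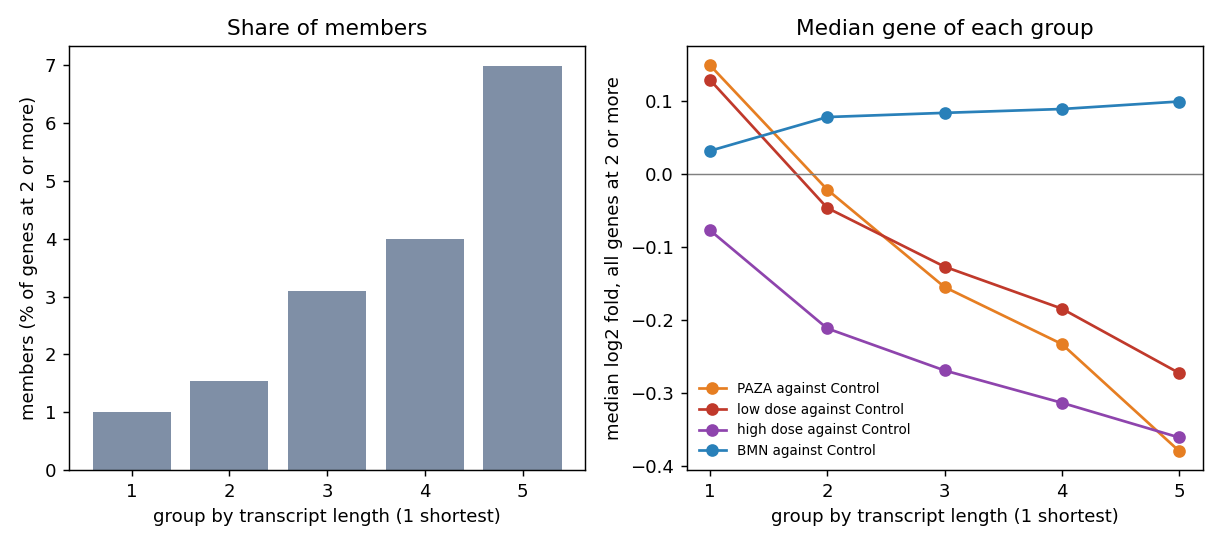
The left panel gives the share of members among genes at 2 or more in Control and BMN, in percent, for 5 equal groups of transcript length from the shortest to the longest, and it climbs from 1.01% to 6.98%. The right panel gives the median log2 fold over all those genes in each group, which falls with length in the 3 PAZA-containing libraries against Control and not in BMN against Control.

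The members were spread over the genome. All autosomes and the X chromosome held some, from 1.27% of the genes at 2 or more on chromosome 6 to 4.88% on chromosome 15, and 307 of the 312 were protein coding. Members are called adjacent where no other shared gene with a known position lies between them. Genes outside that set can lie there. Adjacent members were the keratin genes Krt5, Krt1 and Krt77 on chromosome 15, the pairs Slfn9 with Slfn8 and Ifi209 with Ifi208 named above, and Perp with Arfgef3 on chromosome 10, the latter at 11.3 in Control, 11.2 in BMN, 5.43 in PAZA, 7.29 in the low-dose and 7.19 in the high-dose combination. Further adjacent pairs were Eif5b with Rev1, Mycbp2 with Scel, Taf4 with Lsm14b, Golim4 with Rapgef2 and Aplp2 with Prdm10. Such pairs can lie far apart, and Golim4 with Rapgef2 spanned positions 75875084 to 79286517 of chromosome 3. Mycbp2 was at 16.1, 15.7, 8.53, 9.72 and 10.4, Prdm10 at 6.18, 4.65, 2.48, 2.89 and 2.62 and Lsm14b at 255 and 262 without PAZA and 149, 159 and 145 with it. Med9os, a member, is antisense to a protein-coding gene, and without knowledge of strand in the counting its reads cannot be told apart from those of its partner.

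At the edge of the rule the choice was narrow. Just inside the 1.5-fold limit were Rapgef2 with a ratio of 1.50001, Sh3kbp1 with 1.503 and Nsmaf with 1.504, and just outside were Gpr161, Prrc2b and Crebrf with 1.499, 1.499 and 1.498. Just inside the level of 2 were K230015D01Rik, Scel and Rtn4rl2, with 2.01, 2.02 and 2.02 in the lower of Control and BMN. Just outside were Prdm8, Gpr160 and Ifit3b, with 1.97, 1.96 and 1.93. A further 13 genes, among them Afdn and Polr2a, met both limits and were left out because their BMN value lay within 0.5% of 2 times a deposited low-dose value, as held for 156 of the shared genes.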

How the data were processed

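Total RNA of 5 libraries, 1 for each treatment, was sequenced, and per the labels reads were aligned with HISAT2 to GRCm38 and assembled with StringTie; versions are not given in the sources used here. The authors deposited 5 tables of FPKM per gene, each pairing 2 libraries, so that most libraries appear in several tables. The copies of BMN and of the high dose had the same values, but for 1 gene of the high dose, and those of PAZA and the low dose differed by a constant for all but 219 to 375 genes. No unit is printed in the tables; FPKM was taken from their values and StringTie, and the depth behind it is unknown. Control and PAZA were taken from their common table, BMN and the high dose from theirs, and the low dose from the table with the high dose, whose low-dose column summed to 1.90e+06 against 520108 to 586376 for the others.

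For each symbol the row with the highest mean was kept, and each library was scaled to a sum of 1e+06 over the 13979 symbols in the 3 tables. The selection rule is given with the results. Members and lists were chosen with earlier results of these data known, and role groups were assigned by hand after selection. Named genes were the 20 members with the highest ratio, the 20 with the highest level, members in a list, of a shared family or adjacent to another member, and those at the limits; others were chosen after their values were seen, to illustrate a role group. With 1 library per group no test was made. Transcript lengths came from GENCODE M21 on GRCm38 and promoters from RefSeq. Python 3.11.15, pandas 2.3.3 and numpy 2.4.6 were used.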

Additional observations from a re-analysis of the deposited data

How the results depend on the processing

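No paired analysis was possible because each group holds 1 library. A count or ratio was taken as unaltered within 1.5 times its value, and a median log2 value within 0.58. The number of genes, 312, was 91 under median-ratio scaling, 41 with a 2-fold limit, 1126 with a ratio of 5 to 4 as the limit and 81 when centred within 20 bins of transcript length. With 1 library left out of the rule it was 1064 without Control, 767 without BMN, 584 without PAZA, 545 without the low dose and 457 without the high dose. The other 9 alternatives (levels of 1 and 5, a pseudocount of 1, summed repeated rows, doubled BMN values kept, both other low-dose copies, the other PAZA copy, and scaling without ribosomal protein and respiratory chain genes) gave between 247 and 362. The median ratio of 1.62 was 2.52 with a 2-fold limit, which fewer genes meet, and between 1.39 and 1.74 under the others. None of the 42 alternative median log2 values moved by more than 0.58, but under median-ratio scaling all 4 medians between libraries of the same side changed sign, from 0.07 to -0.03 for BMN against Control, from 0.02 to -0.00025 for the low dose against PAZA, from -0.01 to 0.11 for the high dose against PAZA and from -0.02 to 0.11 for the high against the low dose. Depth is unknown, so it sets a limit on the low genes that cannot be stated.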
